A study of Homo sapiens with 12 samples.

Results

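The genes that copy DNA in S phase were followed across 12 RNA sequencing libraries of PANC-1, an established human pancreatic cancer cell line. The set holds 49 genes of the 23284 gene symbols listed, chosen by name for their role: the licensing of replication origins, the MCM2-7 helicase and its activation, the DNA polymerases and primase, the sliding clamp and its loader, single-strand binding, nucleotide supply, the control of entry into S phase and the repacking of new DNA into chromatin. All 49 genes reached an FPKM (fragments scaled to exon length and to the number of reads mapped) of at least 1 in at least 2 libraries and so were among the 12946 genes tested. The cells carried a retroviral reporter in which the green fluorescent protein ZsGreen is fused to a degron that the proteasome recognises, so that fluorescence builds up where proteasome activity is low. Degron (−) cells are the infected line as it stood, of which few cells fluoresce. Degron (++) cells are the most strongly fluorescent part of a line obtained from it by repeated sorting and culture, so the populations also differ in that history. Each population was represented by 3 pairs of libraries, without irradiation at 48 h (0 Gy), and after a dose of 4 Gy at 30 h and at 48 h. The starting point of these hours is not given in the labels. Those libraries here called degron (−) are named ZsGreen-negative in their titles and d+ in their descriptions, and the titles were followed. Nothing in the labels says that the 2 libraries of a group came from separate cultures, so p-values measure only the spread between these libraries.

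As background, a cell prepares for replication in G1, when the origin recognition complex, CDC6 and CDT1 load rings of the MCM2-7 helicase onto DNA. At the start of S phase CDC45 and the GINS complex join the helicase, DNA polymerase alpha with its primase lays down primers, the RFC complex loads the ring-shaped clamp PCNA, and polymerases delta and epsilon extend the strands. Most of these genes are transcribed together as cells pass from G1 into S phase, under the E2F transcription factors, and in tumor tissue they are read as a sign of proliferation.

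The promoters show the part of this control that can be read from sequence. RefSeq promoters (GRCh38.p14) were matched for 43 of the 49 genes, and the 250 bases before the start of each transcript were searched on both strands for 3 words bound by E2F factors (the word TTCCCGC, the nearly identical word TCCCGCC, or the further word TTGGCGC, with overlapping matches counted once), for the CCAAT box, and for TTTGAA, a word called CHR that is common in promoters of mitotic genes. An E2F word was present in 28 of the 43 promoters (65.1%), against 17.8% of all 27305 promoters of the same length. A CCAAT box was present in 58.1% of the 43, against 33.0% of all promoters. The CHR word was present in 4.65% of the 43, against 65.0% of the 20 promoters matched for a list of mitotic (G2/M) genes and 13.6% of all promoters. The 27305 promoters include those of genes not among the genes tested, and no share was taken over tested genes alone. A match is a run of letters and not a measured binding site. MCM4, MCM5, GINS4, RPA2, RPA3 and CCNE2 were not matched.

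The promoters of 7 genes are printed to set genes of the same step beside each other, and were chosen after their values were seen. CDC6 and ORC1, which license origins, were both higher in degron (++) cells. RFC3, RFC5 and RFC4 are subunits of the clamp loader, of which the first pair were higher and RFC4 lower. RRM2 and RRM1 form ribonucleotide reductase, of which RRM2 was lower in all 3 conditions and RRM1 passed the threshold at 48 h with 4 Gy only. Each sequence runs 5′ to 3′ on the strand of its gene and ends at the base before the transcript start, and capitals mark E2F words and CCAAT boxes (ATTGG on the other strand).
CDC6 (chr17:40287629-40287878, plus strand): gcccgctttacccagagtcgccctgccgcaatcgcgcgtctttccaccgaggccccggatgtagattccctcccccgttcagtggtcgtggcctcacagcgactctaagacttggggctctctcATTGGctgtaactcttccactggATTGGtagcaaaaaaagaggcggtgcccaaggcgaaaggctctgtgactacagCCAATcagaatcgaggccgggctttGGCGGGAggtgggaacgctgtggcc
ORC1 (chr1:52404424-52404673, minus strand): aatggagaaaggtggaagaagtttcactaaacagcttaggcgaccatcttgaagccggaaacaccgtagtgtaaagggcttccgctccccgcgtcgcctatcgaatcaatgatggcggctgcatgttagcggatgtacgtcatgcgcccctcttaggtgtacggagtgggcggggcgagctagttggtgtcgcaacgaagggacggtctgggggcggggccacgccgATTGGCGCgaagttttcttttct
RFC3 (chr13:33817899-33818148, plus strand): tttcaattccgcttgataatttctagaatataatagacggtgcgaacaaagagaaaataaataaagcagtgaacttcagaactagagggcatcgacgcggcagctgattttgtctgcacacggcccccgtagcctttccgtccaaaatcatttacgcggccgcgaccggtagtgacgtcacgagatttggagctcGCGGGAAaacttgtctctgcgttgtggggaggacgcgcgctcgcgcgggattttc
RFC5 (chr12:118016453-118016702, plus strand): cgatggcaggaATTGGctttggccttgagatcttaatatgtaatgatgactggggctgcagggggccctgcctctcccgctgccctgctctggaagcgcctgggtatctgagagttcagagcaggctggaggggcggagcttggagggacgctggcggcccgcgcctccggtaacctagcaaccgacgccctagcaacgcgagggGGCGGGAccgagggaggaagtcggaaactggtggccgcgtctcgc
RFC4 (chr3:186806483-186806732, minus strand): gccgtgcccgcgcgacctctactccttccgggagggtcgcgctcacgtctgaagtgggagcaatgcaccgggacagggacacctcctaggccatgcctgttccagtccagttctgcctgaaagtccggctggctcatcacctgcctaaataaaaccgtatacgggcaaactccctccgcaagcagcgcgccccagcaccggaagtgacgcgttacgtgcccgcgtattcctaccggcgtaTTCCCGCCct
RRM2 (chr2:10122489-10122738, plus strand): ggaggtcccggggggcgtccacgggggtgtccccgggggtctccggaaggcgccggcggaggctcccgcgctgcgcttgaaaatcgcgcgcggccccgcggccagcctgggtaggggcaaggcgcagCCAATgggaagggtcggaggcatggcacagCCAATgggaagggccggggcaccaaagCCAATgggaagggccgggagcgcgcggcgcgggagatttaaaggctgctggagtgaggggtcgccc
RRM1 (chr11:4094435-4094684, plus strand): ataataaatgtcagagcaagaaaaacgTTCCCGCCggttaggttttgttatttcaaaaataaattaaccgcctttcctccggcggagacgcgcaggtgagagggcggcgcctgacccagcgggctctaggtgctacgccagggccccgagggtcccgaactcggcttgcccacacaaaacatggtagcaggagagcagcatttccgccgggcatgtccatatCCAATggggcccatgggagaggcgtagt
Of these, RRM2 held none of the 3 E2F words and 3 CCAAT boxes, and each of the others held 1 E2F word or run of overlapping words. The promoters of RFC3 and RFC4, whose transcripts differed in opposite directions, both held 1 E2F word and no CCAAT box.

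Degron (++) and degron (−) cells were compared first, at each dose and time. Most of the set differed between the populations, but in both directions. In unirradiated cells 20 of the 49 genes were higher in degron (++) cells, 16 were lower and 13 did not pass the test (limma on log2(FPKM + 1), adjusted p under 0.05). Over all genes tested, 37.6% were higher and 40.2% lower at this threshold, so the shares of the set were near those of genes in general. At 30 h with 4 Gy the counts were 22 higher and 13 lower, against 38.3% and 40.8% of all genes. At 48 h with 4 Gy they were 21 higher and 11 lower, against 37.1% and 39.6%. In both comparisons at 4 Gy the lower side held a smaller share of the set than of all genes. The counts on each side changed with scaling, as given below. The median log2 fold change of the set was 0.05, 0.08 and 0.10 in the 3 comparisons. For all genes tested it was −0.02, −0.02 and −0.01. In unirradiated cells the median size of the difference, regardless of sign, was 0.31 for the set and 0.51 for all genes tested, and 2 of the 49 genes (4.08%) differed by at least 1 on the log2 scale, against 24.9% of all genes. Since RNA was measured in bulk, a change in the share of cells in S phase and a change in RNA per cell cannot be told apart.

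**Figure D1:**
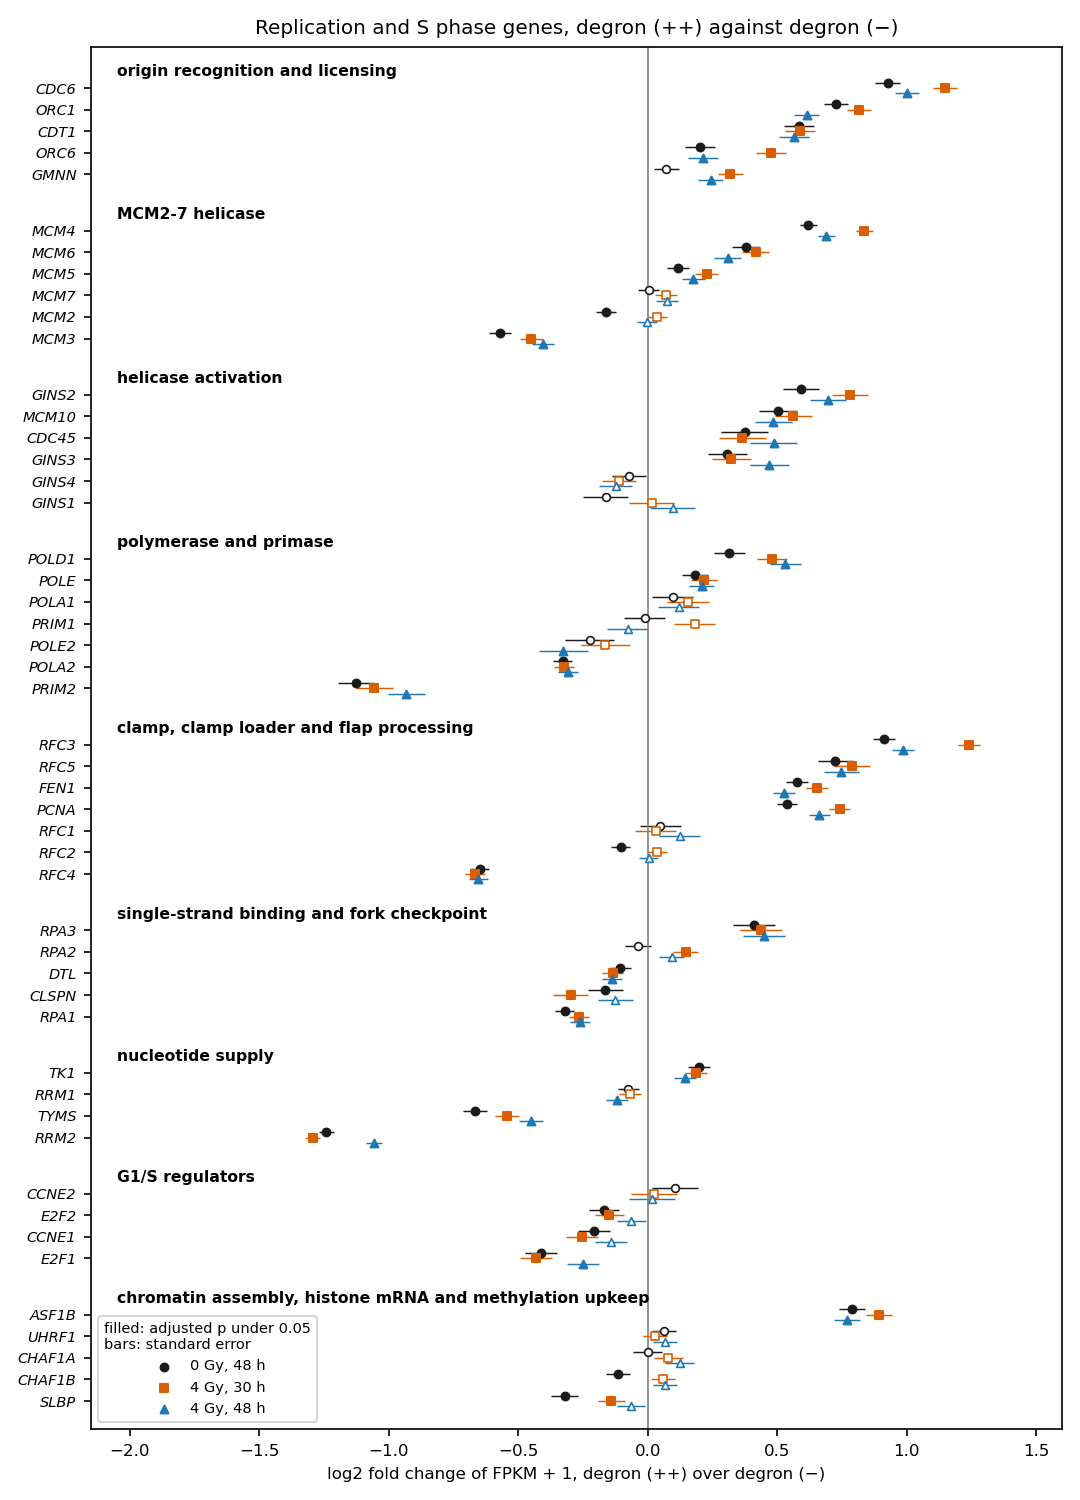
Log2 fold change of FPKM + 1, degron (++) over degron (−), for the 49 genes grouped by role (rows) in the 3 conditions (black circles, 0 Gy and 48 h; orange squares, 30 h with 4 Gy; blue triangles, 48 h with 4 Gy). Filled symbols have an adjusted p under 0.05 (limma) and bars are standard errors; CDC6 and RFC3 lie farthest to the right and RRM2 and PRIM2 farthest to the left in each condition.

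In 27 genes the difference held in all 3 conditions, with the 6 degron (++) libraries all on the same side of the 6 degron (−) libraries. They were higher in degron (++) cells for 19 genes and lower for 8, against 32.1% and 34.9% of all genes tested. The lower side thus held a smaller share of the set than of all genes. The direction of the largest differences did not depend on how the libraries were scaled, but that of several small ones did. When each library was rescaled to a common FPKM sum (TPM), the median of all genes moved to −0.21, −0.27 and −0.25, and 35.9%, 33.3% and 31.7% of the genes past the threshold were higher in degron (++) cells, against 48.3%, 48.5% and 48.3% before. One gene, MIR622, held 22.5% to 30.0% of the FPKM sum. With this gene left out of the sum the shares were 41.0%, 39.6% and 35.7%. Under all 4 scalings tried (FPKM as deposited, quantile normalization and both TPM versions), 10 genes remained past the threshold on the higher side in all 3 conditions, namely ORC1, CDC6, CDT1, MCM4, GINS2, PCNA, RFC3, RFC5, FEN1 and ASF1B. The other 9 of the 19 fell short of the threshold or changed sign under at least 1 scaling in at least 1 condition. On the lower side all 8 remained, namely MCM3, POLA2, PRIM2, RFC4, RPA1, RRM2, TYMS and E2F1.

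Of the 9 role groups, the licensing factors were the one most uniformly higher in degron (++) cells. Past the threshold were 4 of 5 genes in unirradiated cells and 5 of 5 in both irradiated comparisons. Over all genes tested, 37.6% were higher at 0 Gy, 38.3% at 30 h with 4 Gy and 37.1% at 48 h with 4 Gy. A separate list of 13 further licensing and firing genes did not share this pattern. Of these, 4 were higher and 6 lower at 0 Gy, 4 and 4 at 30 h, and 4 and 5 at 48 h with 4 Gy. Of all genes, 40.2%, 40.8% and 39.6% were lower in these conditions. CDC6, the loader that recruits the helicase to the origin recognition complex, measured 51.9 and 53.1 FPKM at 0 Gy, 60.7 and 64.6 at 30 h with 4 Gy, and 57.8 and 58.9 at 48 h with 4 Gy in degron (++) cells. In degron (−) cells CDC6 measured 26.8 and 27.4 FPKM at 0 Gy, 27.3 and 28.1 at 30 h with 4 Gy, and 27.5 and 29.9 at 48 h with 4 Gy. Every degron (++) library thus lay above every degron (−) library, by a ratio of mean FPKM of 1.93, 2.26 and 2.03. The log2 fold changes were 0.93 ± 0.05 (SE), 1.15 ± 0.05 and 1.0 ± 0.05, and the adjusted p of limma was 1.63e-07 in unirradiated cells. ORC1, the largest subunit of the origin recognition complex, measured 28.4 and 29.3 FPKM in degron (++) and 17.4 and 16.6 in degron (−) cells without irradiation. The ORC1 libraries did not overlap in any condition, and its log2 fold changes were 0.73, 0.82 and 0.61. CDT1, the partner of CDC6 in loading the helicase, measured 24.2 and 25.1 FPKM against 16.0 and 16.2 in unirradiated cells and differed by 0.58, 0.59 and 0.57. ORC6, a further subunit of the complex, differed by less (0.20, 0.48 and 0.21), and its value at 48 h with 4 Gy fell to −0.04 with TPM rescaling. GMNN encodes geminin, which binds CDT1 and blocks a second round of licensing, and was the most abundant of the 5 (mean 60.1 FPKM over the 12 libraries). It measured 60.5 and 60.5 FPKM in degron (++) and 56.8 and 58.3 in degron (−) cells at 0 Gy, a log2 fold change of 0.07 ± 0.05 that did not pass the threshold (adjusted p = 0.208, limma). GMNN was higher in degron (++) cells at 4 Gy, by 0.32 at 30 h and 0.24 at 48 h, the latter −0.02 with TPM rescaling. The FPKM ratio of CDT1 to its inhibitor GMNN lay between 0.278 and 0.352 in the 6 degron (−) libraries and between 0.366 and 0.468 in the 6 degron (++) libraries.

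**Figure D2:**
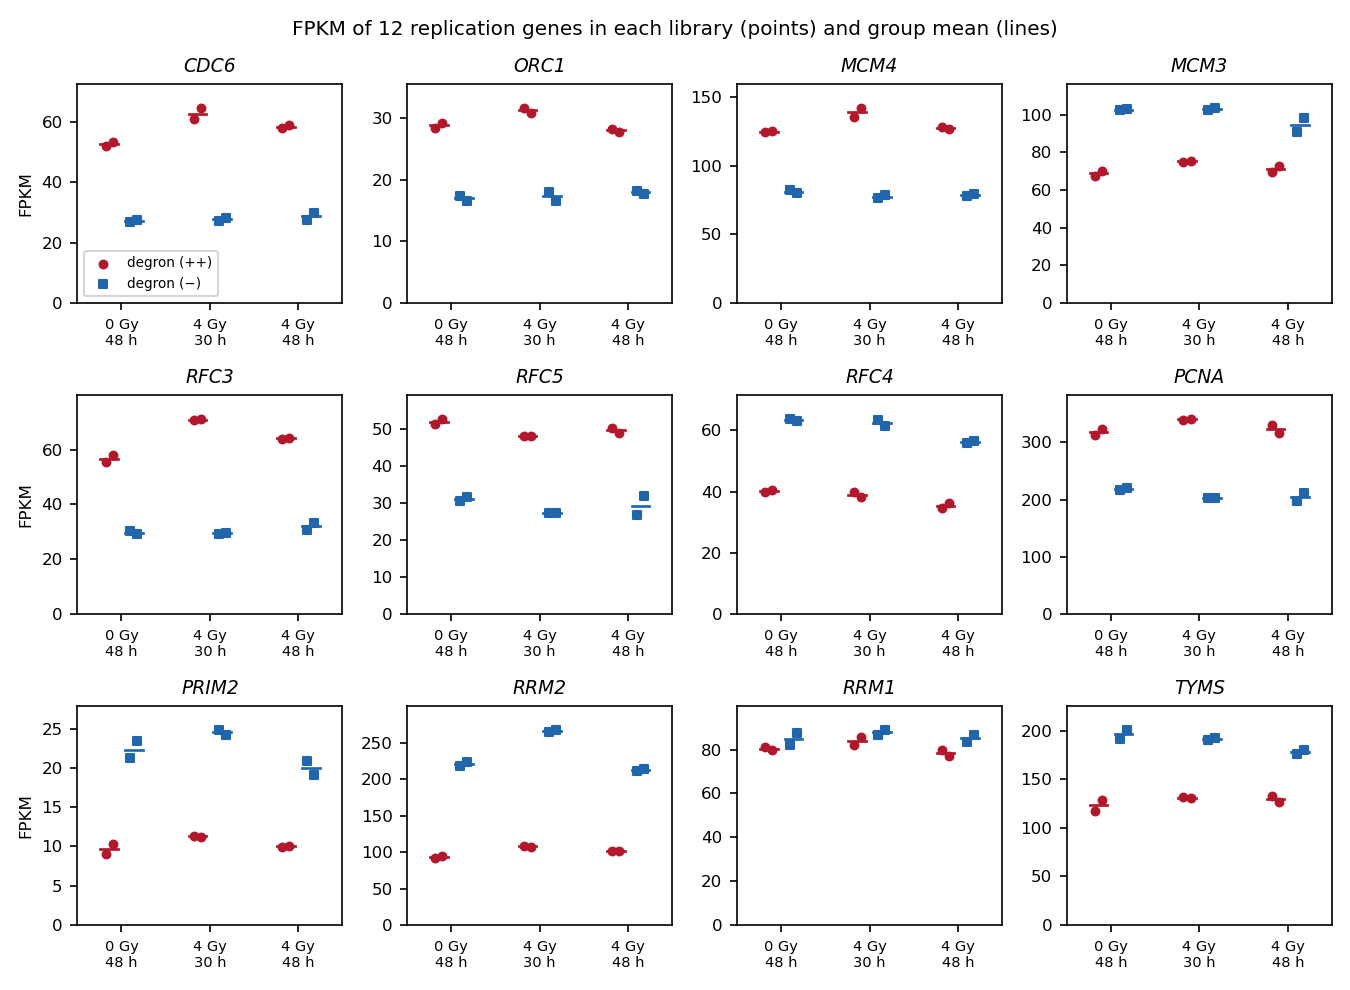
FPKM of 12 genes (panels) in each library, with degron (++) as red circles, degron (−) as blue squares and lines at the mean of the 2 libraries; all vertical axes start at 0. CDC6, ORC1, MCM4, RFC3, RFC5 and PCNA lie higher in every degron (++) library, MCM3, RFC4, PRIM2, RRM2 and TYMS lie lower, and RRM1 nearly coincides.

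The subunits of the MCM2-7 helicase, which unwinds DNA ahead of the fork, did not move together. In unirradiated cells 3 of the 6 subunits were higher, 2 were lower and 1 did not pass the threshold, beside 37.6% higher and 40.2% lower over all genes. MCM4 measured 125 and 125 FPKM in degron (++) against 82.0 and 79.9 in degron (−) cells at 0 Gy, 136 and 142 against 76.4 and 78.3 at 30 h with 4 Gy, and 128 and 127 against 77.9 and 79.2 at 48 h with 4 Gy. MCM3 went the other way, with 67.3 and 70.4 against 102 and 103, 74.8 and 75.6 against 102 and 104 and 69.4 and 72.6 against 90.8 and 98.1 in the same order. Neither gene's libraries overlapped between the populations. The log2 fold changes were 0.62, 0.84 and 0.69 for MCM4 and −0.57, −0.45 and −0.41 for MCM3, with adjusted p of 1.94e-07 and 1.99e-06 in unirradiated cells (limma). As a result the FPKM ratio of MCM4 to MCM3, pieces of the same ring, was 0.745 to 0.859 in degron (−) libraries and 1.75 to 1.88 in degron (++) libraries. MCM6 was also higher (0.38, 0.42 and 0.31). MCM5 was higher by a smaller amount (0.12, 0.23 and 0.18), which TPM rescaling turned to −0.09, −0.05 and −0.08. MCM2 was lower in unirradiated cells (−0.16) and did not pass the threshold at 4 Gy (0.04 and 0.00). MCM7 was the most abundant subunit, with 176 to 199 FPKM over the 12 libraries. Its log2 fold changes of 0.00, 0.07 and 0.08 did not pass the threshold, and were −0.21, −0.21 and −0.19 with TPM rescaling.

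Among the factors that switch the loaded helicase on, 4 of 6 were higher in degron (++) cells in each condition and none was lower. Beside them, 37.6%, 38.3% and 37.1% of all genes were higher and 40.2%, 40.8% and 39.6% lower. GINS2, the most abundant of them, measured 53.7 and 60.8 FPKM in degron (++) and 39.6 and 35.8 in degron (−) cells without irradiation, 62.5 and 59.1 against 36.0 and 33.8 at 30 h with 4 Gy, and 54.8 and 56.8 against 33.5 and 34.5 at 48 h with 4 Gy. The groups did not overlap, and the log2 fold changes were 0.59, 0.78 and 0.70, with an adjusted p of 4.36e-05 in unirradiated cells (limma). GINS3, a subunit of the same complex, was higher by 0.31, 0.32 and 0.47. The remaining GINS subunits did not pass the threshold, with −0.16, 0.01 and 0.10 for GINS1 and −0.07, −0.11 and −0.12 for GINS4. MCM10, which helps to activate the helicase, was higher by 0.50, 0.56 and 0.49, and CDC45, the third part of the active helicase, by 0.37, 0.37 and 0.49. With TPM rescaling, CDC45 and GINS3 were no longer past the threshold in unirradiated cells (0.17 and 0.12) or at 30 h with 4 Gy (0.09 and 0.07).

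The primase showed one of the largest differences of the set, and in a single subunit. PRIM2, the large subunit that anchors the primer-making enzyme to DNA polymerase alpha, measured 9.03 and 10.3 FPKM at 0 Gy, 11.4 and 11.2 at 30 h with 4 Gy, and 9.90 and 10.1 at 48 h with 4 Gy in degron (++) cells. In degron (−) cells PRIM2 measured 21.2 and 23.4 FPKM at 0 Gy, 24.8 and 24.2 at 30 h with 4 Gy, and 20.9 and 19.2 at 48 h with 4 Gy. The highest degron (++) library stayed below the lowest degron (−) library, and the log2 fold changes were −1.13 ± 0.07 (SE), −1.06 ± 0.07 and −0.93 ± 0.07 (adjusted p = 6.21e-07 in unirradiated cells, limma). PRIM1, the catalytic subunit, measured 32.1 and 34.7 against 31.7 and 35.8 FPKM in unirradiated cells and did not pass the threshold in any condition (−0.01, 0.18 and −0.08). The ratio of PRIM2 to PRIM1 ranged from 0.575 to 0.791 over the degron (−) libraries and from 0.281 to 0.353 over the degron (++) libraries. The subunits of DNA polymerase alpha itself also differed from each other. POLA2, the accessory subunit and the most abundant gene of this group, was lower in degron (++) cells, with 37.7 and 38.2 against 47.2 and 48.7 FPKM at 0 Gy and log2 fold changes of −0.33, −0.32 and −0.31. POLA1, the catalytic subunit, did not pass the threshold (0.10, 0.16 and 0.12). The catalytic subunits of the polymerases that extend the strands were higher: POLD1 of polymerase delta by 0.32, 0.48 and 0.53, and POLE of polymerase epsilon by 0.18, 0.22 and 0.21, the latter −0.02, −0.06 and −0.05 with TPM rescaling. POLE2, an accessory subunit of polymerase epsilon, passed the threshold on the lower side at 48 h with 4 Gy (−0.33) and not at 0 Gy or at 30 h (−0.22 and −0.16).

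Of the 8 complexes whose subunits were compared, the clamp loader held the widest split between its highest and lowest subunit. The split was 1.56 on the log2 scale in unirradiated cells, 1.91 at 30 h with 4 Gy, and 1.64 at 48 h with 4 Gy. The origin recognition complex, with ORC1 and ORC6 in the set, was not among the 8. RFC3 measured 55.3 and 58.1 FPKM at 0 Gy, 70.7 and 71.2 at 30 h with 4 Gy, and 63.9 and 64.4 at 48 h with 4 Gy in degron (++) cells. In degron (−) cells RFC3 measured 30.2 and 29.1 FPKM at 0 Gy, 29.3 and 29.6 at 30 h with 4 Gy, and 30.8 and 33.1 at 48 h with 4 Gy, so that it was 1.91, 2.41 and 2.01 times as high in degron (++) cells by mean FPKM. RFC5 was higher too, with 51.3 and 52.7 against 30.4 and 31.7 FPKM at 0 Gy. RFC4 ran in the opposite direction, with 39.8 and 40.4 against 63.7 and 63.2 FPKM at 0 Gy, 39.9 and 38.1 against 63.4 and 61.5 at 30 h with 4 Gy, and 34.6 and 36.2 against 55.9 and 56.6 at 48 h with 4 Gy. None of these 3 subunits overlapped between the populations. The log2 fold changes were 0.91, 1.24 and 0.98 for RFC3, 0.72, 0.79 and 0.75 for RFC5 and −0.65, −0.67 and −0.65 for RFC4, with adjusted p of 8.64e-08, 9.33e-06 and 3.25e-07 in unirradiated cells (limma). RFC3 and RFC4 were present at a ratio of 0.460 to 0.585 in degron (−) libraries and of 1.39 to 1.87 in degron (++) libraries, and RFC5 and RFC4 at 0.431 to 0.561 and 1.20 to 1.46. RFC2 was lower in unirradiated cells by a small amount (−0.11, adjusted p = 0.0307 with limma, from 0.0547 to 0.123 when any 1 of the 4 libraries compared was left out) and did not pass the threshold at 4 Gy (0.04 and 0.00). RFC1, the large subunit, did not pass it in any condition (0.05, 0.03 and 0.12).

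PCNA, the clamp that the RFC complex loads, was the most abundant gene of the whole set, with a mean of 268 FPKM over the 12 libraries. It measured 313 and 323 FPKM in degron (++) and 217 and 220.0 in degron (−) cells without irradiation, 339 and 341 against 202 and 204 at 30 h with 4 Gy, and 330.2 and 316 against 197 and 211 at 48 h with 4 Gy. PCNA libraries did not overlap, and the log2 fold changes were 0.54 ± 0.04 (SE), 0.74 ± 0.04 and 0.66 ± 0.04 (adjusted p = 1.74e-06 in unirradiated cells, limma). FEN1, the nuclease that trims the flaps between the fragments of the lagging strand while bound to PCNA, measured 116 and 124 against 81.1 and 79.1 FPKM at 0 Gy and was higher by 0.58, 0.65 and 0.53.

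The single-strand binding complex RPA split in the same manner as the clamp loader, over a smaller range. RPA3, its smallest subunit, was higher in degron (++) cells, with 30.7 and 33.2 against 22.8 and 24.7 FPKM at 0 Gy and log2 fold changes of 0.41, 0.44 and 0.45. RPA1, the largest, was lower, with 42.9 and 45.4 against 54.5 and 56.2 FPKM and −0.32, −0.26 and −0.26. Both kept the populations apart in every library, at an RPA3 to RPA1 ratio of 0.367 to 0.440 over the degron (−) libraries and of 0.647 to 0.731 over the degron (++) libraries. RPA2, the most abundant gene of this group (54.1 FPKM), passed the threshold at 30 h with 4 Gy (0.15, −0.13 with TPM rescaling) and not in the other conditions (−0.04 and 0.09). Leaving out the first degron (++) library or either degron (−) library of that condition ended the RPA2 call (adjusted p from 0.0623 to 0.108, limma). CLSPN, which encodes claspin, an adaptor that relays stalled forks to the checkpoint kinase CHK1, was lower in unirradiated cells and at 30 h with 4 Gy (−0.16 and −0.30), with −0.13 at 48 h with 4 Gy. DTL, which targets CDT1 for destruction on PCNA, was lower by 0.11 to 0.14 in the 3 conditions.

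RRM2 carried the largest difference of all 49 genes. It encodes the small subunit of ribonucleotide reductase, the enzyme that makes deoxyribonucleotides, and is the subunit whose level follows S phase. RRM2 measured 91.7 and 94.1 FPKM at 0 Gy, 109 and 107 at 30 h with 4 Gy, and 101 and 102 at 48 h with 4 Gy in degron (++) cells. In degron (−) cells it measured 218 and 224 FPKM at 0 Gy, 265 and 268 at 30 h with 4 Gy, and 211 and 214 at 48 h with 4 Gy. The highest degron (++) value, 109, was well below the lowest degron (−) value, 211. The log2 fold changes were −1.24 ± 0.03 (SE), −1.29 ± 0.03 and −1.06 ± 0.03, with adjusted p of 1.46e-09, 9.98e-10 and 4.46e-09 (limma). RRM1, the large subunit of the same enzyme, measured 81.0 and 80.0 FPKM in degron (++) and 82.3 and 87.4 in degron (−) cells at 0 Gy, and its log2 fold changes were −0.07, −0.07 and −0.12. The last of these passed the threshold (adjusted p = 0.0277, limma). RRM2 exceeded RRM1 by 2.46 to 3.05 times in degron (−) libraries and by 1.13 to 1.33 times in degron (++) libraries. TYMS, thymidylate synthase, which makes the thymidine nucleotide from its uridine precursor, was lower as well: 118 and 129 against 192 and 201 FPKM at 0 Gy, 132 and 131 against 191 and 192 at 30 h with 4 Gy, and 133 and 127 against 176 and 179.8 at 48 h with 4 Gy. The TYMS libraries did not overlap, at log2 fold changes of −0.67, −0.54 and −0.45. TK1, the thymidine kinase that salvages thymidine, was the exception in this group and was higher by 0.20, 0.19 and 0.14, values that were −0.01, −0.10 and −0.12 with TPM rescaling.

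**Figure D3:**
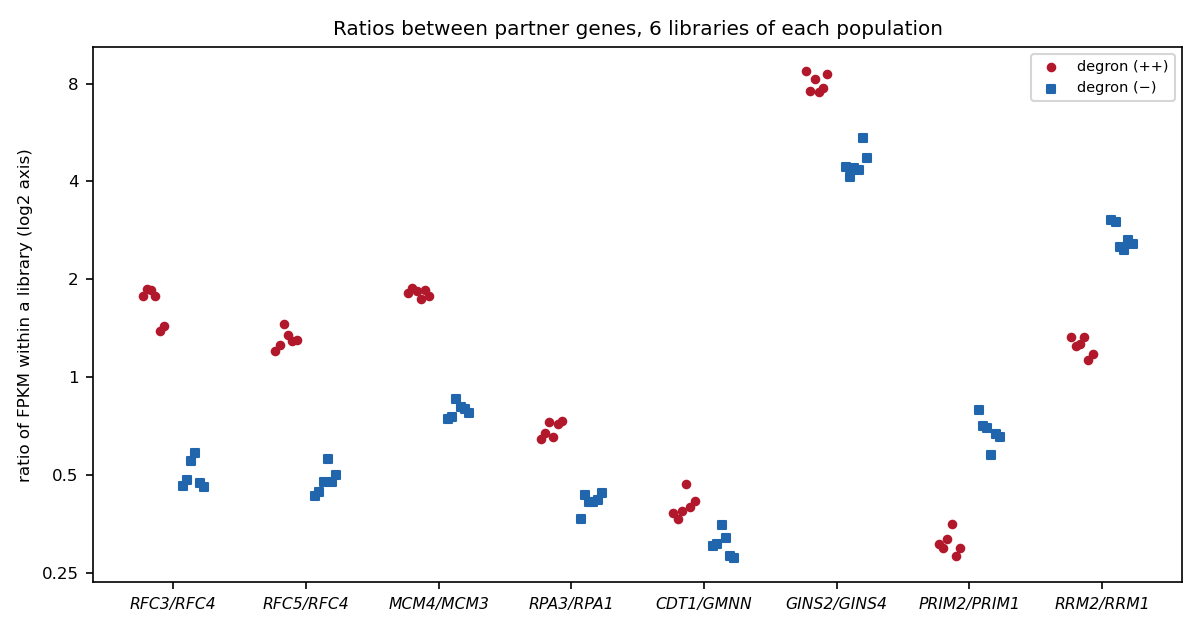
Ratio of FPKM between partner genes within each library, on a log2 axis, for 8 pairs (horizontal axis), with 6 degron (++) libraries as red circles and 6 degron (−) libraries as blue squares. In each pair shown the populations do not overlap, as for RFC3 to RFC4, which spans 1.39 to 1.87 for the red and 0.460 to 0.585 for the blue symbols; the pairs were chosen after the values were seen and carry no test.

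The regulators of entry into S phase were lower or did not pass the threshold. E2F1, the activating E2F factor and the most abundant of the 4, measured 33.3 and 36.0 FPKM in degron (++) and 48.8 and 44.2 in degron (−) cells at 0 Gy, 35.7 and 35.4 against 46.9 and 49.9 at 30 h with 4 Gy, and 35.9 and 38.8 against 45.0 and 44.2 at 48 h with 4 Gy. All degron (++) libraries lay below all degron (−) libraries, with log2 fold changes of −0.41, −0.43 and −0.25 (adjusted p = 0.000206, 0.000142 and 0.00464, limma). E2F2, its close relative, was the least abundant gene of the set (4.92 FPKM) and was lower by a small amount in unirradiated cells and at 30 h (−0.17 and −0.15), with −0.06 at 48 h with 4 Gy. CCNE1, which encodes cyclin E1, the partner of CDK2 at the start of S phase, was lower in the first pair of comparisons (−0.21 and −0.26) and not past the threshold in the third (−0.14, adjusted p = 0.0643, limma). CCNE2, the other cyclin E gene, did not pass it in any (0.11, 0.02 and 0.02). Genes whose promoters held an E2F word were found on both sides: 11 of 16 matched promoters of genes higher in all 3 conditions (68.8%), 5 of 8 of genes lower in all 3 (62.5%) and 12 of 19 of the remaining genes (63.2%).

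Among the genes that rebuild chromatin behind the fork, ASF1B stood apart. This chaperone, which hands new histones H3 and H4 to the assembly machinery, measured 68.3 and 71.3 FPKM in degron (++) and 41.1 and 38.9 in degron (−) cells at 0 Gy, 75.3 and 76.3 against 39.0 and 41.7 at 30 h with 4 Gy, and 67.4 and 70.8 against 38.9 and 41.2 at 48 h with 4 Gy. Its libraries did not overlap, and its log2 fold changes were 0.79 ± 0.05 (SE), 0.89 ± 0.05 and 0.77 ± 0.05 (adjusted p = 6.15e-07 in unirradiated cells, limma). The subunits of CAF-1, the machine that receives these histones, differed little: CHAF1A by 0.00, 0.08 and 0.12, none past the threshold, and CHAF1B by −0.12, 0.06 and 0.07, of which the first passed it on the lower side. SLBP, the protein that binds the stem-loop of histone mRNA and the most abundant of this group (57.9 FPKM), was lower in unirradiated cells and at 30 h (−0.32 and −0.14), with −0.06 at 48 h with 4 Gy. UHRF1, which brings the maintenance DNA methyltransferase to new DNA, did not pass the threshold (0.06, 0.03 and 0.07).

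Of the 103 calls between the populations, 36, 35 and 32 in the 3 conditions, 85 remained when any single library was left out, and none of the 103 changed sign. The 18 that ended were mostly small differences, the largest being that of POLE2 at 48 h with 4 Gy (−0.33). In unirradiated cells these were CHAF1B, without any 1 of 10 of the 12 libraries fitted, CLSPN, without any 1 of 9 (all but the first unirradiated degron (−) library and the 2 degron (++) libraries at 48 h with 4 Gy), RFC2 and DTL, without any 1 of the 4 libraries compared, MCM5 without the second degron (++) or either degron (−) library, E2F2 without either degron (++) or the first degron (−) library, ORC6 and POLE without the second degron (++) or the first degron (−) library, and CCNE1 without the first of either population. At 30 h with 4 Gy they were RPA2, as given above, SLBP without either degron (++) or the first degron (−) library, E2F2 without either degron (++) library, the second degron (−) library or either unirradiated degron (++) library, and DTL without the first degron (−) library. At 48 h with 4 Gy they were ORC6, DTL and TK1 without the second degron (++) or the first degron (−) library, and POLE2 and RRM1 without the second of either population. The adjusted p of these 18 reached at most 0.310 (CLSPN in unirradiated cells, limma).

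The effect of 4 Gy was then compared with 0 Gy within each population at 48 h. None of the 49 genes passed the threshold in degron (++) cells, where 1.42% of all genes tested were higher and 0.402% lower. At an unadjusted p under 0.05 the count was 9 of 49, against 17.6% of all genes, a share near that of the set. In degron (−) cells 1 gene passed, RFC4, on the lower side, where 3.85% of all genes were higher and 0.873% lower. RFC4 measured 55.9 and 56.6 FPKM at 4 Gy against 63.7 and 63.2 at 0 Gy, without overlap, a log2 fold change of −0.17 ± 0.04 (SE) with an adjusted p of 0.0388 (limma). The call ended when any 1 of 8 libraries was left out, including each of the 4 compared (adjusted p from 0.0578 to 0.146). In degron (++) cells RFC4 measured 34.6 and 36.2 against 39.8 and 40.4 FPKM (−0.18, adjusted p = 0.056), so the values fell on the same side there without passing the threshold. PCNA and CDC6, high in degron (++) cells, differed by 0.02 and 0.15 with dose in that population and by −0.10 and 0.08 in degron (−) cells, none past the threshold. The 95% intervals of all 49 genes lay within 0.5 of 0 on the log2 scale in both populations. Dose values were above 0 for 20 genes in degron (++) and at the same time below 0 in degron (−) cells (40.8%, against 20.3% of all genes tested). The difference between the populations in the effect of dose was tested as an interaction, which no gene of the set passed (0.0232% of all genes higher and 0.0541% lower); 8 of the 49 had an unadjusted p under 0.05, against 13.6% of all genes.

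**Figure D4:**
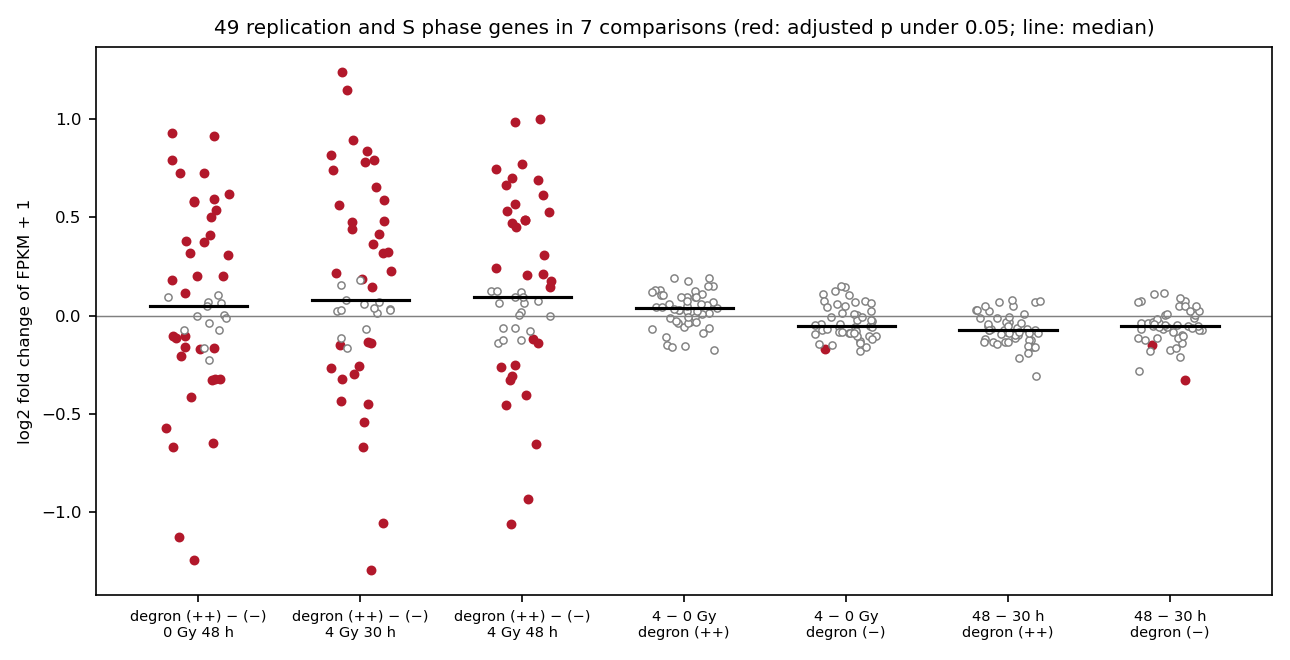
Log2 fold change of FPKM + 1 for each of the 49 genes (points; red, adjusted p under 0.05 with limma; open, not past it) in the 3 comparisons of populations, the 2 of dose and the 2 of time, with lines at the median. The population differences reach from −1.29 to 1.24, while the dose and time differences lie between −0.33 and 0.19.

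The times of 30 h and 48 h were compared within each population at 4 Gy, and differences were again small. In degron (++) cells 39 of the 49 genes had a log2 fold change below 0 and in degron (−) cells 35, with 30 below 0 in both populations (61.2%, against 26.4% of all genes tested). The dose and time comparisons of a population share the libraries at 48 h with 4 Gy. In degron (++) cells no gene passed the threshold, where 0.657% of all genes were higher and 0.548% lower, and 15 of the 49 had an unadjusted p under 0.05, against 15.8% of all genes. In degron (−) cells 2 genes were lower at 48 h, RRM2 and RFC4, where 6.01% of all genes were higher and 1.17% lower. RRM2 measured 211 and 214 FPKM at 48 h and 265 and 268 at 30 h in degron (−) cells, a log2 fold change of −0.33 ± 0.03 (SE) with an adjusted p of 0.000645 (limma). The degron (−) value at 30 h with 4 Gy was also above that at 0 Gy and 48 h, which was 218 and 224 FPKM, but these groups differ in both dose and time. The series holds no unirradiated library at 30 h, so time after irradiation and time in culture cannot be told apart. RFC4 measured 55.9 and 56.6 against 63.4 and 61.5 FPKM (−0.15 ± 0.04, adjusted p = 0.0471, limma), a call that ended when any 1 of the 12 libraries was left out (adjusted p from 0.0514 to 0.236). In degron (++) cells RRM2 measured 101 and 102 at 48 h and 109 and 107 at 30 h (−0.09, adjusted p = 0.19). The difference between the populations in the effect of time was past the threshold for RRM2, at 0.24 ± 0.04 (SE) with an adjusted p of 0.0231 (limma), and for no other gene of the set, where 0.510% of all genes were higher and 2.72% lower. This call ended when any 1 of the 8 libraries compared was left out, at adjusted p from 0.0517 to 0.0868. All 95% intervals for time lay within 0.5 of 0 in both populations, PRIM1 having the lowest value in degron (++) cells (−0.31, adjusted p = 0.116, limma).

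A further 70 genes of replication and of the G1/S transition were counted beside the 49. In unirradiated cells 26 were higher, 28 lower and 16 did not pass the threshold, with a median of −0.03. The counts were 25 and 26 at 30 h with 4 Gy and 24 and 27 at 48 h with 4 Gy. Their shares were near those of all genes tested, of which 37.6%, 38.3% and 37.1% were higher and 40.2%, 40.8% and 39.6% lower. The largest differences lay among the regulators of cyclin-dependent kinases. CDKN1A, which encodes the inhibitor p21, measured 5.82 and 6.80 FPKM in degron (++) and 64.1 and 59.7 in degron (−) cells at 0 Gy, and its log2 fold changes were −3.11, −3.05 and −2.69. CDKN2C, which encodes p18, an inhibitor of CDK4 and CDK6, was lower at −1.98, −2.36 and −2.20, while CDKN1B, which encodes p27, was higher by 1.09, 1.05 and 1.11. CCND2, which encodes cyclin D2, was higher by 1.74, 2.1 and 1.71, and CDK6, a kinase that D-type cyclins activate, was lower at −1.34, −1.36 and −1.19. POLD4, the small accessory subunit of polymerase delta, was lower at −1.07, −1.36 and −1.20, opposite to POLD1. Within this list CDKN1A was higher at 4 Gy than at 0 Gy in degron (++) cells (0.47, adjusted p = 0.0413, limma), a call that ended without any 1 of the 4 libraries compared (adjusted p from 0.0676 to 0.207), as was CTPS1, which makes cytidine nucleotides (0.27, adjusted p = 0.0417). CDKN1B was higher at 48 h than at 30 h in both populations, by 0.28 in degron (++) and 0.22 in degron (−) cells. The adjusted p was 0.0258 and 0.0188 (limma), and these calls likewise ended without any 1 of the 4 libraries compared. Of the 18 further fork and polymerase genes, 1 was higher at 48 h in degron (−) cells, against 6.01% of all genes. For the time interaction 1 of the 18 was lower, against 2.72% of all genes.

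The mitotic genes, which act later in the cell cycle, were counted in the same way. Of 25 G2/M genes 5 were higher and 13 lower in unirradiated degron (++) cells, 7 and 11 at 30 h with 4 Gy, and 5 and 13 at 48 h with 4 Gy, with medians of −0.18, −0.08 and −0.20, beside 37.6%, 38.3% and 37.1% of all genes higher and 40.2%, 40.8% and 39.6% lower. The mean of log2(FPKM + 1) over the 49 replication genes ranged from 5.18 to 5.31 over the degron (++) libraries and from 5.09 to 5.17 over the degron (−) libraries, while that of the G2/M genes ranged from 5.81 to 5.95 and from 5.98 to 6.08. Which population stood higher for the 49 genes depended on scaling. Their summed FPKM made up at most 0.322% of the FPKM sum in any degron (++) library. In every degron (−) library that share was at least 0.324%, so the order was reversed by a narrow margin. The sum includes MIR622, a gene outside the set, which took up at least 28.6% of it in every degron (++) library. No degron (−) library exceeded 27.1% for this gene, so its weight lowered the other shares more in degron (++) cells. Whether the reversal holds with MIR622 left out of the sum was not tested. The share of the G2/M genes kept its order, at most 0.255% against at least 0.277%. No test of the difference between the lists was made.

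The place of the genes along the chromosomes was compared with their values, using the order of genes in RefSeq. For each of the 49 genes the median log2 fold change of the 10 nearest tested genes on either side (13 genes in all for TYMS, near a chromosome end) was taken in unirradiated cells. Across the 49 genes, own and neighbour values correlated at a Pearson r of 0.40 and a Spearman rho of 0.40. This is a description, since all points come from the same 4 libraries, and the same correlation over all genes tested was not computed. RFC3 lay among neighbours that were higher too (median 0.67), and PRIM2 and RRM2 among neighbours that were lower (−0.33 and −0.38). RFC4 and TYMS did not follow their neighbours, whose medians were 0.20 and 0.23, and neither did ORC1, whose neighbours had a median of −0.24.

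**Figure D5:**
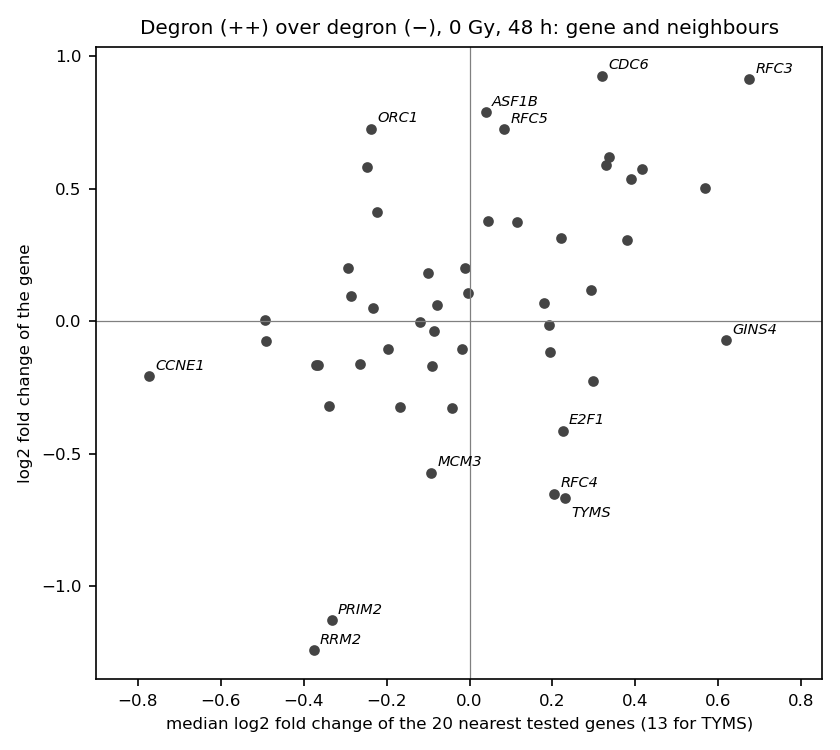
Log2 fold change of each of the 49 genes (vertical axis) against the median of its nearest tested genes along the chromosome (horizontal axis), degron (++) over degron (−) at 0 Gy and 48 h, with selected genes named. RFC3 and CDC6 lie at the upper right, RRM2 and PRIM2 at the lower left, and RFC4 and TYMS at the lower right.

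The libraries themselves set limits on these values. FPKM hold no counts, so the depth is unknown, and the steps between low values put the deepest library at 1.36 times the shallowest. FPKM summed to between 829654 and 916877 per degron (++) library and to between 707273 and 763064 per degron (−) library. The keratins KRT8, KRT18 and KRT19, which mark ductal epithelium, were abundant in all libraries (667 FPKM or more), and the acinar, islet and endothelial markers and the leukocyte genes PTPRC and CD3E lay below 1 FPKM everywhere. The epithelial genes EPCAM and CDH1 were higher in degron (++) cells (2.21 and 2.85 at 0 Gy), the fibroblast gene COL1A1 was at 41.2 FPKM on average in degron (−) and 0.674 in degron (++) libraries, and LUM at 1.04 and 19.9, with COL1A2 and DCN listed at 0. CD14 reached at most 1.92 FPKM. The part of these differences in the replication genes was not tested.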

How the data were processed

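Total RNA of 12 PANC-1 libraries was converted to stranded mRNA libraries and sequenced. The submitters' processing notes name TopHat2 2.1.1, Bowtie2 2.2.8, SAMtools 0.1.18, Cuffdiff 2.2.1 and the build hg19, and the annotation is not given in the sources used here. The authors deposited 1 table per library of FPKM by gene symbol, and these hold no counts, so no interval for counting error can be given. Fold changes of log2(FPKM + 1), a pseudocount of 1, understate the change of low genes. FPKM of genes that share reads with near-identical copies are uncertain.

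From the FPKM, limma 3.58.1 (R 4.3.3; lmFit, eBayes with trend) was fitted to the 12946 genes that reached 1 FPKM in 2 or more libraries, with 6 group means over the 12 libraries and Benjamini-Hochberg adjustment over all genes tested, with 0.05 as the threshold. Residual spread was thus shared by groups of 2. The fit was tested on simulated data, with changes of 0.5 on the log2 scale set in 112 genes. It recovered 92 for the population difference at 0 Gy, 91 for dose in degron (++) cells and 60 for the dose interaction. An interaction of that size could thus often be missed. Figures were drawn with Python 3.11.15 and matplotlib 3.10.9. The members and lists were chosen with earlier results of these data known. Named genes are, per comparison, the 10 members with the largest change past the threshold and the most abundant member of each role group. Members past the threshold against the majority of their group and the 5 largest changes among the further 70 genes are also named. The further fork and polymerase genes called for time and its interaction were counted and not named. Other named genes were chosen after their values were seen. Alternatives were a pseudocount of 0.1, quantile normalization, TPM rescaling, a limit of FPKM 5 or none for low genes, eBayes with no trend, the replicate number as a block, only the libraries compared, and leaving out each library. TPM rescaling with MIR622 left out of the sum was added after the data were seen. TPM are FPKM divided by the library's FPKM sum. Promoter words were counted in the RefSeq promoters of GRCh38.p14 and gene order was taken from RefSeq, without converting coordinates.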

Additional observations from a re-analysis of the deposited data

Results flagged for a closer look

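RRM2 differed between the populations in its change from 30 h to 48 h at 4 Gy. The change was −0.09 ± 0.03 (SE) on the log2 scale in degron (++) cells, from 109 and 107 to 101 and 102 FPKM, and −0.33 ± 0.03 in degron (−) cells, from 265 and 268 to 211 and 214 FPKM. The difference of 0.24, tested as an interaction, had an adjusted p of 0.0231 (limma). Without any 1 of the 8 libraries compared, the adjusted p lay between 0.0517 and 0.0868, and over all other settings between 0.0134 and 0.152. Groups of 2 libraries were too small for a check of single libraries within a group.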

How the results depend on the processing

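The other pseudocount, no filter and the filter at FPKM 5 left every count of members past the threshold within 1.5 times its value. TPM rescaling changed most: the members past the threshold were 12 higher in unirradiated cells, 13 higher and 24 lower at 30 h with 4 Gy, and 13 higher and 24 lower at 48 h with 4 Gy, and 10 were higher and 21 lower in all 3 conditions with no overlap. Of the 12946 genes tested, 9810, 10066 and 9586 passed the threshold with TPM rescaling in the 3 conditions. Of these, 35.9%, 33.3% and 31.7% were higher. With MIR622 left out of the sum, 21 members were lower at 48 h with 4 Gy and 17 lower in all 3 conditions. At 48 h with 4 Gy 9619 of all genes then passed, 35.7% of them on the higher side. No share of all genes was taken under these rescalings for all 3 conditions together. The shift in the median of all genes is built into these rescalings.

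Under TPM rescaling the log2 fold change turned to −0.21, −0.21 and −0.19 for MCM7 in the 3 conditions, −0.091, −0.054 and −0.085 for MCM5, −0.019, −0.057 and −0.046 for POLE and −0.0084, −0.096 and −0.12 for TK1, to −0.13 and −0.17 for RPA2 at 4 Gy (30 h and 48 h), and to −0.041 for ORC6 and −0.017 for GMNN at 48 h with 4 Gy. With MIR622 left out of the sum it turned for MCM7 at 0 Gy and at 48 h with 4 Gy (−0.12 in both), for MCM5 in the same conditions (−0.0014 and −0.018), for RPA2 at 30 h with 4 Gy (−0.010) and for TK1 at 48 h with 4 Gy (−0.053).

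The few calls for dose and time depended on most settings, and the cause was not tested. The gene lower with dose in degron (−) cells was lost (0 genes) under both TPM rescalings, with no trend, with the replicate block and with only the libraries compared, and quantile normalization gave 1 gene higher there and 1 lower in degron (++) cells. The genes lower with time in degron (−) cells fell from 2 to 1 under both TPM rescalings, with no trend and with the replicate block, and to 0 with only the libraries compared. The gene of the time interaction was lost (0 genes) under both TPM rescalings, with no trend and with only the libraries compared.

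Omission of 1 library at a time gave 17 to 20 higher and 10 to 15 lower in unirradiated cells, the 10 without the first degron (++) library, 21 to 23 and 11 to 13 at 30 h with 4 Gy, 20 to 23 and 9 to 12 at 48 h with 4 Gy, and 16 to 20 and 8 to 9 in all 3 conditions. For dose it gave 0 to 1 lower in degron (−) cells, for time 0 to 1 higher and 1 to 2 lower in degron (−) cells, and for the time interaction 0 to 1 higher and 0 to 1 lower; in each other case it gave 0.

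Libraries of the same replicate number did not deviate together: over 15 pairs of groups the correlation of their deviations lay between −0.04 and 0.12, above 0.1 in 2, so that the numbers were not taken to pair the samples. With the replicate block the calls between populations went from 36 to 34 genes in unirradiated cells and from 35 to 36 at 30 h with 4 Gy, and stayed at 32 at 48 h with 4 Gy. Depth is unknown, with 2 libraries a group, and standard errors of the 49 genes lay between 0.03 and 0.10 on the log2 scale for population, dose and time and between 0.04 and 0.13 for the interactions.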

Other observations

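A list of 18 genes that p53 is known to activate was counted beside the replication genes, since some of them act on the cell cycle. In unirradiated cells 4 were higher and 8 lower in degron (++) cells, and at 30 h with 4 Gy 5 and 7. The third condition, 48 h with 4 Gy, gave 4 and 7. Of all genes tested, 37.6%, 38.3% and 37.1% passed the threshold on the higher side in the 3 conditions. On the lower side these shares were 40.2%, 40.8% and 39.6%. The replication-linked member RRM2B, which encodes the subunit that can stand in for RRM2 outside S phase, had log2 fold changes of −0.28, −0.67 and −0.39, and measured 7.18 and 7.01 FPKM in degron (++) and 9.37 and 8.31 in degron (−) cells at 0 Gy. It was chosen after its values were seen. Of the 18 genes CDKN1A was higher with dose in degron (++) cells, as given above, and TNFRSF10B, a death receptor, in degron (−) cells (0.26, adjusted p = 0.00602, limma).

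Among the G2/M genes, BUB1, a kinase of the spindle checkpoint, had the largest difference in unirradiated cells (−0.98, −0.86 and −0.96 in the 3 conditions), followed by TPX2, which organises the spindle (−0.69, −0.60 and −0.68). MKI67, the gene of the proliferation marker Ki-67, was lower at 4 Gy than at 0 Gy in degron (++) cells (−0.29, adjusted p = 0.0485, limma). No other gene of that list passed the threshold for dose or time. For dose in degron (++) cells the list's median was 0.03, with 14 genes above 0 and 11 below. Whether the MKI67 call held with single libraries left out was not tested. BUB1, TPX2 and MKI67 were chosen after their values were seen.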
